A study of Drosophila melanogaster with 3 samples.

Results

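The 10 genes CG14100, CG11050, Ugalt, hll, cbt, CG4004, CG9663, Pal1, Art3 and sbb carried the nearest protein-coding start to 10 of the 20 highest peaks of CG4328-GFP chromatin in fly embryos. They are 10 of 2568 protein-coding genes nearest to a peak of the reproducibility-thresholded ("optimal") list, and of 13945 such genes over the 6 major chromosome arms. The genes are a listed 10 from the 20 peaks with the highest deposited signal value in the optimal list, so peak height is given as a description, with no test. Height does not separate them from the other 10: Tlk (rank 4) was not listed and sbb (rank 18) was. The listed 10 were chosen with earlier results of these data known. Being nearest does not show that a gene is regulated from the peak.

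The study was a chromatin immunoprecipitation sequencing (ChIP-seq) experiment on whole Drosophila melanogaster embryos of both sexes, aged 8 to 24 h. All embryos came from a single transgenic strain, CG4328-GFP, in which CG4328 is fused at its C-terminal end to GFP, and chromatin was recovered with an antibody against GFP, per the sample descriptions (the antibody label itself names CG4328). There was 1 group with 3 biological replicates, and the control alignments behind the peak calls were not analysed here, so no contrast between conditions was possible and signal at these sites without the tagged protein was not tested. An embryo mixes many cell types, and a high peak from many cells cannot be told apart from strong occupancy in few. CG4328 encodes a LIM-homeodomain transcription factor; proteins of this class carry paired zinc-binding LIM domains that recruit partner proteins and a homeodomain that contacts AT-rich DNA with a TAAT core, and in flies several of them specify neuron types and appendage parts.

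The 10 genes do not share a function. By known roles, cbt (cabut, a zinc-finger factor related to mammalian TGF-beta-inducible early genes) and sbb (scribbler, also called brakeless, a corepressor) act on transcription. Art3 encodes an arginine methyltransferase. Ugalt (a UDP-galactose transporter of the secretory pathway), CG9663 (a member of the ABC transporter subfamily that contains the eye pigment transporter white), Pal1 (a lyase of neuropeptide amidation) and hll (heimdall, a relative of the acyl-CoA synthetase gene bubblegum) encode transport or metabolic proteins. CG14100, CG11050 and CG4004 are annotated as uncharacterized proteins in the reference.

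The DNA under 6 of the summits is shown first, because it holds the base composition and short motifs that are compared further on. The windows reach up to 100 bases to each side of the summit (the base of highest signal within a peak), on the plus strand of the release 6 genome (dm6, RefSeq), and the CG14100 and Ugalt windows are shortened to leave out transcribed ends. Capitals mark runs of at least 4 G or 4 C. CG14100 and CG9663 carry such runs on both sides of the summit, cbt has runs on one side and Art3 a single one, and CG11050 has none. Ugalt also has runs on both sides, but only those after the summit are within the printed letters.
CG14100 (chr3L:19590525-19590711): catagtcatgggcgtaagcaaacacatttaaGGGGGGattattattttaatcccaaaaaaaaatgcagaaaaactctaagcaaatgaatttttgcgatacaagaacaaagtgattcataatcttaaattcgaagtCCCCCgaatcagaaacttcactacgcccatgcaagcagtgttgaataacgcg
Ugalt (chrX:2703853-2703987): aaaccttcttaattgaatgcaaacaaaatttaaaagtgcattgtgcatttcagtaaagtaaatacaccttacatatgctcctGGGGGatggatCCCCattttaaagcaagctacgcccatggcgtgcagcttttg
CG9663 (chr2L:3302064-3302264): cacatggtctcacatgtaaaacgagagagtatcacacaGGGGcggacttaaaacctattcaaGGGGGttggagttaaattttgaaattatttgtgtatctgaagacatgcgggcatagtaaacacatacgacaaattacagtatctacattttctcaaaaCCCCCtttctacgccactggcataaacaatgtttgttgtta
cbt (chr2L:480958-481158): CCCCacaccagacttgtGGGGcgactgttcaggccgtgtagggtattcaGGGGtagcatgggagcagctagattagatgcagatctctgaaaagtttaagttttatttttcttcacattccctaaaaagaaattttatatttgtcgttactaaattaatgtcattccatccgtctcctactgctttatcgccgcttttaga
Art3 (chr3R:15229436-15229636): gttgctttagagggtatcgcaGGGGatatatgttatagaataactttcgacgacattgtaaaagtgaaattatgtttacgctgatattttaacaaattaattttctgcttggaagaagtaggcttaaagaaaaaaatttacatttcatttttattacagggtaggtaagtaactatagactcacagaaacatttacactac
CG11050 (chr2L:6612606-6612806): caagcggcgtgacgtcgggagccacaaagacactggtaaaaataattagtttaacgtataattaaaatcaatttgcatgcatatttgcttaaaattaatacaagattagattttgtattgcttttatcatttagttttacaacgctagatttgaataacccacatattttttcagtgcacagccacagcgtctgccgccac

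At CG14100, Ugalt and CG9663 the runs flanked an AT-rich centre. In CG14100 a run of 6 G ended 50 bp before the summit and a run of 5 C began 49 bp after it. In Ugalt runs of 5 G lay on both sides, 46 bp before and 48 bp after the summit (the first of them falls in the part not printed). In CG9663 runs of 5 G and 5 C lay 34 bp before and 60 bp after it. Over all members, 8 of 10 had at least 1 run, against 2 of the other 10 of the 20 highest and 38.5% of all optimal peaks. Runs of both bases were present at 5 members, 1 of the other 10 and 6.02% of optimal peaks. A run on each side of the summit was present at 4 members (CG14100, Ugalt, CG9663 and sbb), at 1 of the other 10 (elav) and at 6.13% of optimal peaks. The runs were picked out after the sequences had been read, so these counts carry no test. The nearest run lay 34 to 94 bp from the summit, with a median of 48.5 bp.

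The highest peaks held high places in each replicate's own list of 30000 peaks, as the plot of ranks by replicate shows. All 10 were among the 100 highest of every replicate, which 1.84% of the optimal peaks were (68 of 3688). Since the optimal list was called from these same 3 libraries, this is a description of agreement and not independent support. The median of the members' lowest replicate rank was 14 (3 to 43), against 19.5 (5 to 38) for the other 10 of the 20 highest and 2577 for the 3157 optimal peaks found in every replicate. Both the 68 and the 3157 include second summits listed in the same interval, such as those at hll and CG9663. These take the replicate ranks of the taller summit.

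**Figure D1:**
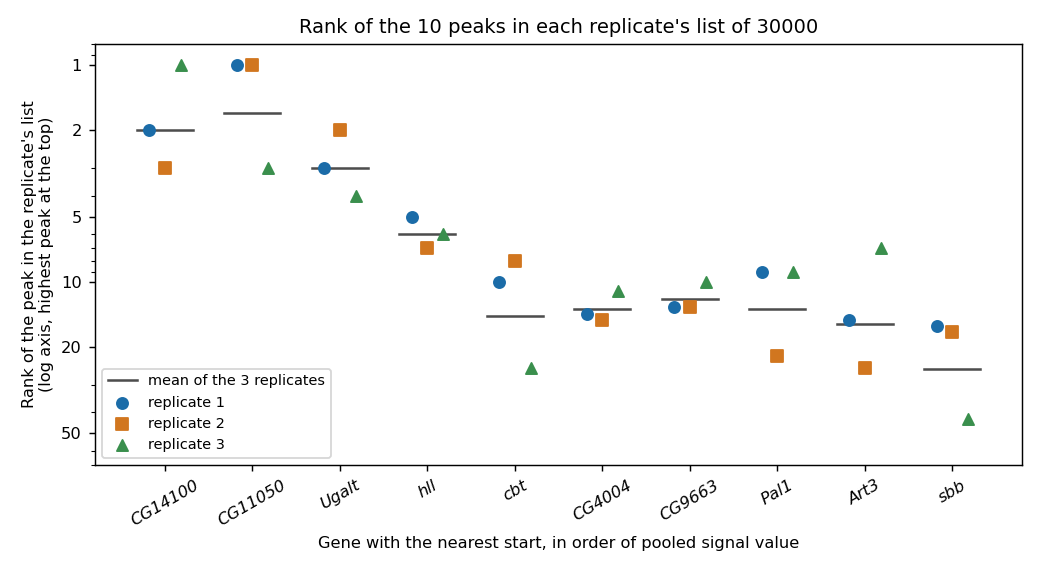
Rank of each of the 10 peaks (x axis, by gene, in order of pooled signal value) among the 30000 peaks of replicates 1, 2 and 3 (y axis, log scale, rank 1 at the top), with bars for the mean of the 3. CG14100, CG11050 and Ugalt sit at ranks 1 to 4 in all replicates, and the widest spreads are those of sbb (16 to 43), Art3 (7 to 25) and cbt (8 to 25).

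CG14100 and CG11050 shared the top place between replicates. The CG14100 peak had deposited signal values of 1004.8, 1047.8 and 1222.7 in replicates 1, 2 and 3 and ranked 2, 3 and 1 (mean 2 ± 1, SD, n = 3). The CG11050 peak had 1076.5, 1231.4 and 822.54 and ranked 1, 1 and 3 (mean 1.67 ± 1.15, SD, n = 3). Their order thus differed between replicates, and their mean ranks lay within the spread of either gene. In the optimal list, whose values come from the pooled replicates, they had 3256.3 and 3083.1.

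Ugalt and hll followed with the same narrow spread. Ugalt had signal values of 818.34, 1070.2 and 817.67 and ranked 3, 2 and 4 (mean 3 ± 1, SD, n = 3). The hll peak had 800.31, 843.62 and 639.88 and ranked 5, 7 and 6 (mean 6 ± 1, SD, n = 3). No replicate placed hll above any of the first 3 members.

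The other members ranked between 7 and 43 and their order was not fixed across replicates. CG9663 had signal values of 574.65, 694.79 and 546.44 and ranked 13, 13 and 10 (mean 12 ± 1.73, SD, n = 3). CG4004 had 571.02, 627.74 and 524.46 and ranked 14, 15 and 11 (mean 13.3 ± 2.08, SD, n = 3). Both kept within a few places, while the remaining 4 moved by more.

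Replicate 3 set cbt and sbb lower than replicates 1 and 2 did. The cbt peak had 622.41, 822.99 and 370.12 and ranked 10, 8 and 25 (mean 14.3 ± 9.29, SD, n = 3). The sbb peak had 532.55, 598.68 and 320.53 and ranked 16, 17 and 43 (mean 25.3 ± 15.3, SD, n = 3). The promoter peaks of Art3 and Pal1 did not follow that pattern. Art3 had 542.52, 558.23 and 617.18 and ranked 15, 25 and 7 (mean 15.7 ± 9.02, SD, n = 3), highest in replicate 3. Pal1 had 633.48, 568.33 and 581.76 and ranked 9, 22 and 9 (mean 13.3 ± 7.51, SD, n = 3), lowest in replicate 2. Mean ranks of cbt, CG4004, CG9663, Pal1 and Art3 lay between 12 and 15.7 and did not differ beyond their spread.

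Signal values are comparable only within a list, because their scale is not stated. The deposited −log10 q values could not order these peaks: all 10 shared the highest value of every list, 3.057, 3.956 and 3.353 in replicates 1, 2 and 3, which 570, 4515 and 1127 peaks held. At the edge of the choice by height, sbb (rank 18), CG5611 and PIG-F had signal values of 1465.2, 1441.4 and 1405.5, and the peaks just outside the 20 highest, nearest to RpS27, Psc and Hsp83, had 1348.7, 1338.2 and 1324.2.

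The replicates placed the member summits nearly on the same base. Distances from the optimal summit to the replicate summits were 0 to 28 bp. The largest of the 3 distances had a median of 9.5 bp over the members, against 17 bp over the other 10 of the 20 highest and 52 bp over the 3157 optimal peaks found in every replicate. Each entry took the summit of the highest replicate peak that overlapped it. Second summits in a shared interval were thus measured to another summit, which can enlarge the 52 bp. The optimal list comes from the same 3 libraries, so these distances are a description. CG14100 was off by 0, 5 and 5 bp and Ugalt by 1, 1 and 2 bp, while cbt was off by 26 bp in replicate 1 and CG9663 by 28 bp in replicate 3. Member peaks were 372 to 783 bp wide, with a median of 461 bp against 450 bp for all optimal peaks, and CG4004 had the widest of all 3688.

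By position, 4 members had their summit within 500 bp of a protein-coding start, 4 in an intron and 2 between protein-coding genes. Among the other 10 of the 20 highest, 7 were promoter peaks, at mRpL41, Gapdh2, CG11309, px, elav, CG5611 and PIG-F, and 3 were intronic, nearest to Tlk, Lk6 and a start shared by CG42507 and Trl. Of all optimal peaks, 53.1% lay within 500 bp of a start, 32.3% in introns and 12.8% between genes. Summits between starts that point away from each other, at most 1000 bp apart, were found for 3 members, 4 of the other 10, and 20.2% of all optimal peaks. With 10 genes, chosen with these results known, no difference between these shares was tested.

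**Figure D2:**
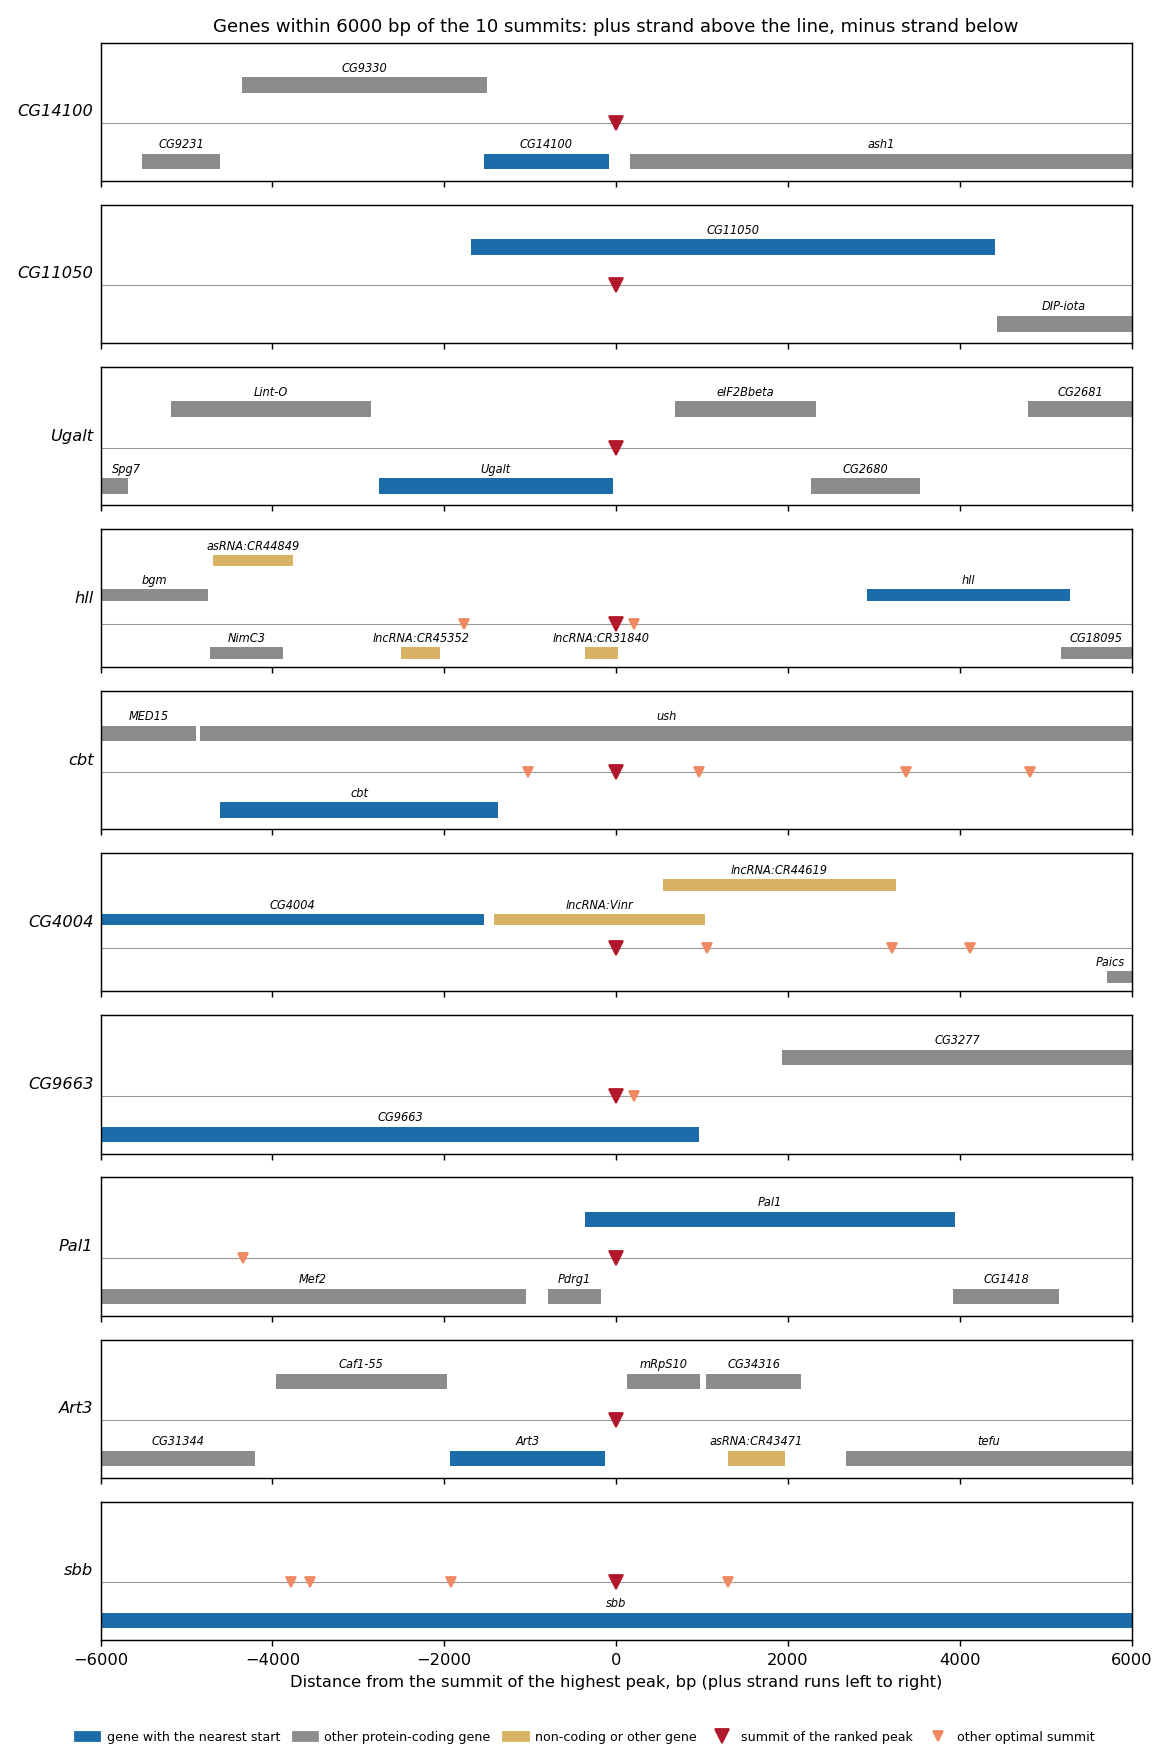
Genes around the 10 member summits, each panel centred on its summit (x axis, distance in bp, plus strand left to right), with plus-strand genes above the line, minus-strand genes below it and triangles for optimal summits. CG14100, CG11050, Ugalt and Art3 stand alone within 5000 bp, hll and CG4004 have non-coding genes across the summit, and cbt and sbb each have 4 further summits within 5000 bp.

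Of the promoter peaks, the highest of the list was at CG14100 (FBgn0036889, minus strand, 3L, 19589072 to 19590524). Its peak, 3L 19590401 to 19590821, had its summit 87 bp upstream of the single annotated start. The summit sat in a gap between 2 genes on the same strand: the 3′ end of ash1, a trithorax group histone methyltransferase, lay 162 bp away, and the start of ash1 8144 bp away. No other optimal summit lay within 5000 bp, and the next, nearest to the potassium channel gene Shal, was 14776 bp away. Of the 20 highest peaks only this one and the PIG-F peak lay within 50000 bp of each other, 21721 bp apart.

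Ugalt (FBgn0024994, minus strand, X, 2701124 to 2703852) had its peak at X 2703675 to 2704083, with the summit 35 bp upstream of its start. The start of eIF2Bbeta, a subunit of the exchange factor for translation initiation factor 2, pointed the other way 684 bp from the summit, so the starts were 719 bp apart. It was the most isolated member, with no other optimal summit within 20000 bp and the next at 28402 bp.

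Art3 and Pal1 lay between closer start pairs. Art3 (FBgn0038306, minus strand, 3R, 15227605 to 15229408) and mRpS10, a mitochondrial ribosomal protein gene, start 257 bp apart, and the summit of the peak at 3R 15229350 to 15229727 lay 128 bp from the first and 129 bp from the second. Which of the pair is nearest therefore rests on 1 bp, and the midpoint of the peak and the summit of replicate 2 gave mRpS10.

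Pal1 (FBgn0283510, plus strand, 2R, 9959549 to 9963853) had its peak at 2R 9959691 to 9960124. The summit was 166 bp upstream of the inner of its 2 annotated starts and 180 bp from the start of Pdrg1 (a prefoldin-like gene), 346 bp apart, and the replicate 2 summit was nearer to Pdrg1. It also lay in a 76 bp intron of a longer Pal1 transcript. Mef2, the muscle-differentiation factor gene, starts 1054 bp from the summit and had 4 optimal peaks of its own, the best at rank 769.

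CG11050 and CG9663 had peaks within the gene, about 1000 bp inside the start. The CG11050 (FBgn0031836, plus strand, 2L, 6611011 to 6617117) peak spanned 2L 6612405 to 6612932. Its summit lay 1019 bp downstream of a start, in the second of 4 introns, which is 140 bp long, so the 528 bp peak also covered exon sequence. Starts of other protein-coding genes were far off, with DIP-iota, an immunoglobulin-domain cell-surface protein gene, at 8994 bp, and no other optimal summit lay within 5000 bp. CG9663 (FBgn0031516, minus strand, 2L, 3294926 to 3303130) had its peak at 2L 3301964 to 3302555, with the summit 966 bp downstream of its start in the first of 7 introns (1292 bp). This interval was listed again with a second summit 204 bp away at rank 903. CG3277 starts 1936 bp from the summit and CG9664, another transporter of the same subfamily, 7458 bp; neither had an optimal peak.

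For cbt (FBgn0043364, minus strand, 2L, 476446 to 479688) the highest peak was not the one at its promoter. That peak, 2L 480914 to 481285, had its summit 1370 bp upstream of the start, inside the first intron of ush (u-shaped, a cofactor of GATA factors), which runs on the opposite strand and encloses cbt. The nearest ush start was 4838 bp away. The promoter peak of cbt, 342 bp upstream of its start, ranked 134 in the optimal list and 94, 105 and 301 in replicates 1, 2 and 3. In all 4 optimal peaks were nearest to cbt and 2 to ush, the better of these at rank 247.

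The sbb peak (FBgn0285917, minus strand, 2R, 18278198 to 18357296) lay farthest from a start, 20109 bp into a gene of 79099 bp. It spanned 2R 18336879 to 18337379, in an intron of up to 65649 bp that is the first or second of the transcripts crossing it. Tango8, whose start lies inside sbb, begins 25365 bp away. As with cbt, the promoter peak was lower: it lay 131 bp upstream of the start and ranked 111 in the optimal list, and 128, 66 and 171 in replicates 1, 2 and 3. With 6, sbb had the most optimal peaks among the members, at ranks 18, 111, 422, 456, 722 and 2309.

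The summits nearest to hll and CG4004 lay in non-coding RNA genes. For hll (FBgn0286723, plus strand, 2L, 14027001 to 14029368) the peak at 2L 14023886 to 14024373 had its summit 2919 bp upstream of the start. It fell in an exon of lncRNA:CR31840, a 378 bp gene, 17 bp from its start. On the other side NimC3, a Nimrod-family receptor gene, starts 3874 bp away and had an optimal peak at rank 287, and bgm starts 10336 bp away and had none. The hll interval was also listed with a second summit, 203 bp from the first, at rank 1462.

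For CG4004 (FBgn0030418, plus strand, X, 12744212 to 12749785) the summit of the peak at X 12750844 to 12751626 lay 5001 bp downstream of the nearest start and 1533 bp past the end of the gene. It fell in an exon of lncRNA:Vinr (2457 bp), and lncRNA:CR44619 starts 549 bp away. Smr, a corepressor gene, starts 8700 bp away on one side and Paics, a purine synthesis gene, 9299 bp away on the other. When starts of all annotated genes were allowed, the nearest gene was lncRNA:CR31840 in place of hll and lncRNA:CR44619 in place of CG4004, and the other 8 members kept their gene.

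The AT-rich centre seen in the printed sequences was present at every member. GC content of the central 51 bp was lower than that of the outer 100 bp of the same 201 bp window at 10 of 10 members, 9 of the other 10 of the 20 highest and 60.7% of all optimal peaks. The central value ranged from 21.6% at CG11050 to 31.4% at CG14100, hll, CG9663 and sbb, with a median of 29.4%, against 27.5% for the other 10 and 33.3% over all optimal peaks. The outer value had a median of 45.5% at the members, 36.5% at the other 10 and 38% over all optimal peaks. The comparison of centre and edges was added after the sequences had been read.

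**Figure D3:**
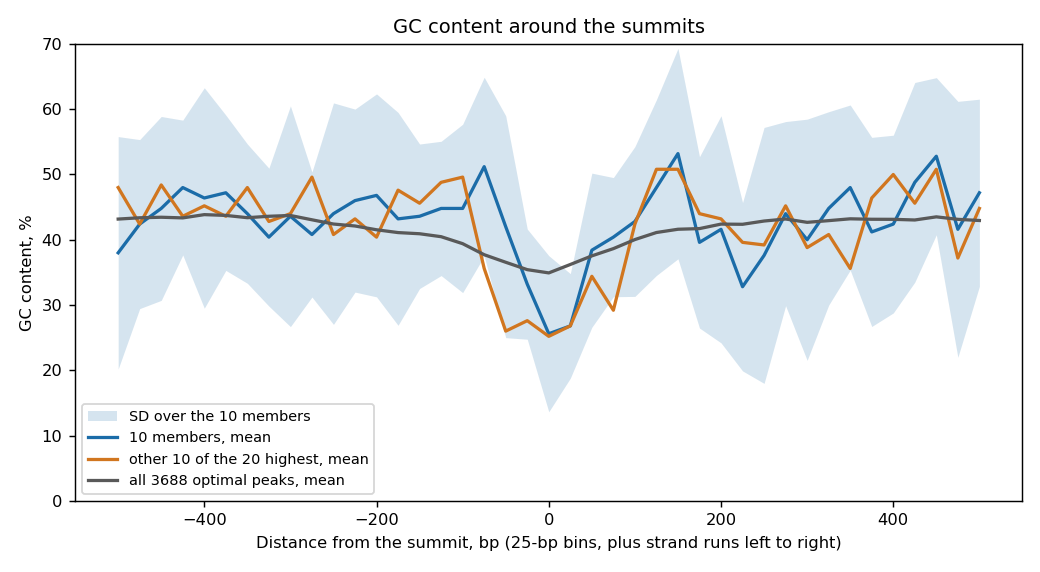
Mean GC content (y axis, %) in 25-bp bins by distance from the summit (x axis, bp) for the 10 members with their SD, the other 10 of the 20 highest and all 3688 optimal peaks. At the summit the means were 25.6% for members, 25.2% for the other 10 and 34.9% for all optimal peaks, and 75 bp before it 51.2%, 35.6% and 37.7%.

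At the summit itself the members and the other 10 were alike. From 25 to 75 bp to either side the members' mean was higher or equal, and the order reversed at 100 bp before it. In the bin centred at the summit the members averaged 25.6% ± 12.0 (SD over 10 peaks) and the other 10 averaged 25.2% ± 8.85, a difference within their spread. In the bin 75 bp before it the members averaged 51.2% ± 13.7 and the other 10 averaged 35.6% ± 9.88, with overlapping SDs and no test made. At 50 bp before it the means were 42% ± 17 and 26% ± 14.3, and at 75 bp after it 40.4% ± 9.13 and 29.2% ± 11.6. These SDs overlapped too. At 25 bp after the summit both averaged 26.8%, at 100 bp after it 42.8% and 42.4%, and at 100 bp before it 44.8% and 49.6%, for the members and the other 10 in each case. Over the whole 201 bp the members' GC content was 30.3% to 45.8% with a median of 37.8%, against medians of 29.9% for the other 10, 36.3% for all optimal peaks and 42.3% for windows at 19252 annotated protein-coding starts. Members ran from Art3 and CG4004, which exceeded 21% and 23.2% of optimal peaks, to sbb and Ugalt, which exceeded 81.4% and 83.9%.

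Of 6 motifs in a list written with earlier results of these data known and sought on either strand within 100 bp of the summit, only 2 were found at any member, each at a single gene. TAATTA, a core that homeodomains bind, was at CG11050 and at 1 of the other 10, and at 18% of all optimal summits. The shorter TAAT core was not counted, and a window without TAATTA can hold it, as the printed Art3 window does. GAGAGAG, read by GAGA factor, was at CG9663, at 3 of the other 10 and at 5.34% of all optimal summits. TATCGATA, the DNA replication-related element of many housekeeping promoters, was at no member, none of the other 10 and 3.42% of optimal summits. CAGCTG, an E-box, was at none of these 20 and at 9.90% of optimal summits. GGTCACACT, core promoter motif 1 in shortened form, was at none of the 20 and at 1.38% of optimal summits. CAGCNCTG was likewise at none of the 20 and at 4.72% of optimal summits. At windows of 201 bp on protein-coding starts the shares were 9.39% for TAATTA, 4.69% for GAGAGAG and 6.45% for TATCGATA. An absent match says only that these letters are not in the window.

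After the sequences had been read and all 2080 strings of 6 bases counted, 3 further strings were taken because they recurred among the members, so their counts are descriptive and carry no test. GGGG, the runs marked in the printed sequences, was also at 34.2% of protein-coding starts. CAGGGG, which contains it, was at 5 members, cbt, CG4004, CG9663, Pal1 and Art3, at none of the other 10, at 4.61% of all optimal summits and at 2.75% of starts. TACGCC was at CG14100, Ugalt and CG9663, at 1 of the other 10, at 4.42% of all optimal summits and at 3.84% of starts. In CG14100 and Ugalt it was part of the same 11 letters, CTACGCCCATG, which 8 of 3688 optimal windows held. Other pairs among the 28 compared shared as much without TACGCC. CG4004 and CG9663 shared 12 letters (in 7 optimal windows), Ugalt and hll 12 (in 16), and CG11050 and hll 11 (in 6). Counting only strings wholly within 50 bp of the summit gave 3 members for GGGG, 1 for CAGGGG and 0 for TACGCC. For GGGG this left out runs that crossed the 50 bp limit. Of the 8 members with a run, 3 had the nearest one more than 50 bp away. The shares of all optimal summits within 50 bp are not given here.

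Relatives of 6 members were then looked up, from gene lists written with earlier results known. The list of sbb grouped genes by their role as repressors or corepressors and is not a sequence family. Its genes are counted as relatives here, and it gave 5 of the 15 relatives with a peak. Together 15 of 46 relatives (32.6%) were nearest to an optimal peak, against 18.4% of all protein-coding genes. Counting only summits within 500 bp of a start gave 9 of 46 relatives, against 12.6% of all genes. Keeping only the higher-ranked part of the optimal list gave 8 of 46, against 10.6% of all genes. Gene length moved with having a peak: the median length was 11864 bp for these 15 relatives and 3245 bp for the other 31, and 4452 bp for all genes with a peak and 1943 bp for those without. The part of length in the count was not tested. No relative was among the 20 highest.

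**Figure D4:**
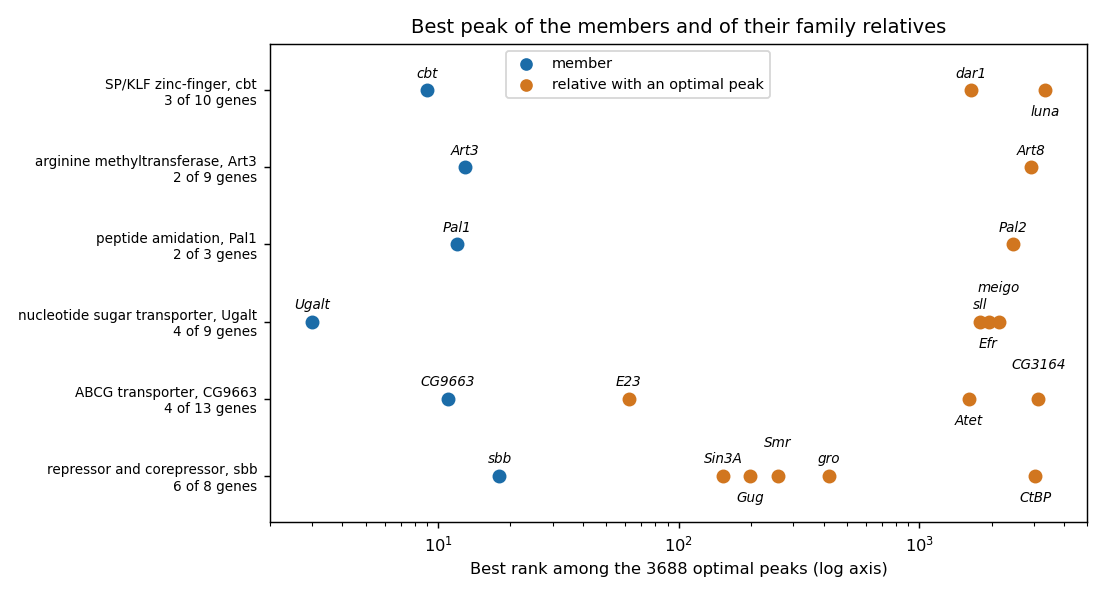
Best rank (x axis, log scale, among 3688 optimal peaks) of 6 members and of the relatives with an optimal peak, by gene list (y axis, with the number of genes that have a peak). The corepressors have 4 relatives between ranks 153 and 421 and the ABC transporters 1 at rank 62, while the relatives of cbt, Art3, Pal1 and Ugalt begin at rank 1640.

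The repressor and corepressor list of sbb had the most, 5 of 7 relatives. Sin3A, the scaffold of a histone deacetylase complex, had its best peak at rank 153, Gug (Atrophin) at 198, Smr at 259 and gro (Groucho) at 421, while CtBP came at 3038; HDAC1 and tll had none. Among transporters of the white subfamily 3 of 12 relatives had a peak: E23, an ecdysone-induced transporter gene, at rank 62, Atet at 1607 and CG3164 at 3128. The E23 peak lay at its promoter, 258 bp upstream of the start, and ranked 71, 49 and 89 in replicates 1, 2 and 3.

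The relatives in the other 4 lists had no peak above rank 1640. In the nucleotide sugar transporter list of Ugalt, 3 of 8 relatives had peaks, sll at rank 1784, Efr at 1941 and meigo at 2144. Not every gene of that list encodes a nucleotide sugar carrier: Csas, for one, encodes a synthase and had no peak. Of 9 relatives of cbt in the SP and KLF zinc-finger family, dar1 (rank 1640) and luna (rank 3331) had one. Of 8 arginine methyltransferase relatives of Art3 only Art8 had one, at rank 2906. Of the 2 other amidation genes, Pal2 had a peak at rank 2449 and Phm, which acts in the step before the lyase, had none.

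By mean rank over the 3 replicates, the optimal peaks outside the 20 highest that were most like the members were the second summits listed in the hll and CG9663 intervals (mean ranks 6 and 12) and a peak at ph-p (mean rank 24.3). The first pair overlap the same replicate peaks as the members, so their ranks are the same values and not further peaks. The ph-p peak (X, 2137654 to 2138126) lay 422 bp downstream of a start of this Polycomb group gene, had a pooled signal value of 1312.5 and ranked 26, 19 and 28 in replicates 1, 2 and 3.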

How the data were processed

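Anti-GFP ChIP-seq peak lists of 3 biological replicates were used. Relaxed lists were made by the authors for each replicate and for the pool, and from these an optimal list by irreproducible discovery rate, per the deposited text notes; aligner, caller and threshold: not given in the sources used here. Deposited signal values have no scale stated by the authors and served to rank peaks inside each list. Ranking by the authors' deposited −log10 q was the alternative. No read totals were used, so depth is unknown, and 5 lists in dm3 were not used. Coordinates are dm6, 1-based. No column lacked a sample or pool.

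Summits were annotated with BDGP 6.54 gene models (Ensembl release 115, 13945 protein-coding genes); ties went to the lower coordinate, then the first name. A replicate peak matched if it overlapped by 1 bp or more, the highest being taken. Scripts were tested on simulated data (Python 3.11.15, pandas 2.3.3, pysam 0.24.0, matplotlib 3.10.9). No test was run, since there is 1 group and the genes were taken from the 20 peaks of highest signal. Members and lists were chosen with earlier results of these data known. Named genes are the members, flanking and enclosing genes, the other genes of the 20 highest peaks, relatives with a peak, and the 3 peaks outside the 20 highest with the lowest mean replicate rank; ash1's end, Shal, Mef2, bgm, HDAC1, tll, Csas and Phm were named after their values were seen.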

Additional observations from a re-analysis of the deposited data

How the results depend on the processing

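No paired analysis was possible because there is 1 group. Of 38 alternatives over 12 results, 27 stayed within the tolerance. This was 1.5 times for counts and 1 SD between replicates for ranks and offsets. For GC content, which has no replicates, it was 6.64 percentage points to either side, from a 95% Wilson interval over the window. That interval treats bases as independent and does not measure the spread between peaks. The members' median GC content, 37.8%, was 32.2% within 50 bp and 42.8% over the whole peak. Both were counted as within the tolerance. The median of the members' lowest rank, 14, ran from 11 to 14 with 1 replicate left out, and was 1 by −log10 q, where all members tie. Members among the highest of every replicate numbered 10 at the 100 highest and 6 at the 20 highest; cbt, Pal1, Art3 and sbb were the others. The median largest summit offset, 9.5 bp, was 7 to 9 bp with 1 replicate left out. TATCGATA was at 0 members and at 1 over the whole peak interval. Wholly within 50 bp of the summit CAGGGG was at 1 member, GGGG at 3 and TACGCC at 0, against 5, 8 and 3 within 100 bp. These alternatives were chosen after seeing the data. Matching shares of all optimal peaks are not given here for the 20 highest, the 50 bp window or the whole interval. Relatives with a peak, 15, were 9 when the summit had to lie within 500 bp of a start and 8 when only the higher-ranked part of the optimal list was kept. Promoter counts were 4 or 5 and divergent pairs 2 or 3 under every alternative run. The direction of several shifts was set in advance. Leaving out a replicate cannot worsen a member's worst place or widen its largest offset. A narrower window, a stricter cut or a shorter list cannot raise a count. What else lay behind these shifts was not tested. Unknown depth leaves the counting error of each peak height unmeasured.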
